A study of Mus musculus with 12 samples.

Results

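The genes described here are 47 mouse genes of inflammatory signaling: chemokines, colony-stimulating factors, interleukins, tumor necrosis factor (TNF) with its receptors and response genes, and the subunits, inhibitors and adaptors of the transcription factor NF-kappaB. They were chosen by function, with earlier results of these data known. The listed symbols were matched to the Ensembl identifiers of the expression table, and they are 47 of its 47642 genes. NF-kappaB is a dimer of Rel-family proteins that IkappaB proteins hold in the cytoplasm until a receptor for TNF or interleukin-1 triggers their breakdown. The freed dimer then switches on chemokines, cytokines and its own inhibitors, so that activation and restraint are written into the same set of genes. In the polycystic kidney, tubular epithelium is known as a source of chemokines and of colony-stimulating factor 1, which act on macrophages.

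RNA was sequenced from mIMCD3 cells, an epithelial line from the inner medullary collecting duct of mice that carry the early region of simian virus 40, which keeps the cells dividing. The genotypes were wild-type cells (Wt), a Pkd1-/- line and a Pkd2-/- line, with 4 libraries each. The Pkd1-/- line is 1 clone made with CRISPR, for which 2 large deletions of the gene are given, and the Pkd2-/- line is 1 clone made with TALENs, with a deletion that removes inner exons. All 3 genotypes grew in DMEM-F12 with 10% fetal bovine serum, RNA was taken 4 days after full confluency, and 4 of the 6 dishes grown per genotype were sequenced after a choice on RNA purity ratios. The replicates are therefore dishes of 1 line or clone, p-values measure only the spread between dishes, and differences between clones cannot be told apart from effects of the genotype. Values are normalized counts, which are read counts that the authors divided by a library's size factor and rounded, and they sum to 25966273 to 28027792 per library. Pkd1 itself had a mean of 782 in Wt and of 41.8 in Pkd1-/- cells, and Pkd2, of which the deletion leaves part of the exons, had means of 3971 in Wt and 3986 in Pkd2-/- cells.

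The epithelial label was checked against 22 markers of collecting duct and tubular epithelium, of which 18 were tested. The general epithelial genes Cdh1, Epcam, Krt8 and Krt18 had means of 8273 to 23890 in every genotype. Among all 18 tested markers 2 passed the test higher and 5 lower in Pkd1-/- cells (11.1% and 27.8%, against 13.6% and 13.5% of all tested genes). In Pkd2-/- cells 7 passed higher and 7 lower (38.9% each, against 20% and 22.3%). Cdh1 and Krt18 were among those higher in Pkd2-/- cells, with log2 changes of 0.18 and 0.35, and Epcam was among those lower (-0.38). Krt19 had means of 4472, 1329 and 1409 in Wt, Pkd1-/- and Pkd2-/- cells, Scnn1g of 928, 303 and 255, and Gata3 of 227, 48.5 and 354. By contrast, the collecting duct water channels Aqp2 and Aqp4 were at 0 in all libraries and the vasopressin receptor Avpr2 did not exceed 1. Of 25 leukocyte markers, 10 were at 0 in all libraries, among them Itgam, Adgre1, Cd3e and Tyrobp, and Ptprc (CD45) did not exceed 5. The leukocyte list summed to 1630 to 1838 in Wt, 1145 to 1262 in Pkd1-/- and 1324 to 1505 in Pkd2-/- libraries, most of it Csf1r and Cd14. The 14 endothelial markers summed to 160 to 177, 308 to 340 and 219 to 267, and 5 of them, among them Kdr, Cdh5, Tie1 and Erg, were at 0. The 5 that were tested made up most of these sums or all of them. In each mutant 1 of these 5 passed higher and 1 lower, or 20% each. Over all tested genes the shares were 13.6% and 13.5% in Pkd1-/- and 20% and 22.3% in Pkd2-/- cells. Fibroblast markers summed to 307 to 344, 572 to 664 and 70 to 231, with Thy1 at 0 and Postn at means of 55.5, 297 and 6.5. The part of these marker genes in the results below was not tested, and in bulk RNA fewer cells of a type cannot be told apart from less RNA per cell.

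Of the 47 genes, 40 averaged 1 normalized count or more and were tested, 29 averaged 10 or more, and 12 averaged 1000 or more. Ccl7, Cxcl15 and Il1b were at 0 in all libraries, which allows up to 3 counts per library. Il6, Csf2, Cxcl14 and Cxcl12 did not exceed 1, 2, 2 and 3 normalized counts and were not tested either. Tnf was low but measured, at means of 32.5 in Wt, 23.5 in Pkd1-/- and 34.0 in Pkd2-/- cells.

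Levels of different genes were compared per kilobase of annotated exon. In Wt cells Rela, the main activating subunit of NF-kappaB, led with 1977 normalized counts per kb. The TWEAK receptor Tnfrsf12a followed with 1276, Nfkb2 with 1245, the TNF receptor Tnfrsf1a with 1228 and the inhibitor Nfkbia (IkappaB-alpha) with 1171. The leading ligands were Csf1 with 517, Cxcl16 with 373, Cxcl1 with 200 and Cx3cl1 with 199 per kb. Tnf itself stood at 19.8 per kb, and the interleukin-1 receptor Il1r1 at 218. The receptors of TNF and TWEAK and the NF-kappaB genes thus stood above most of the cytokines in unstimulated cells, with Tnfrsf1b, at 18.5 per kb, an exception.

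**Figure D1:**
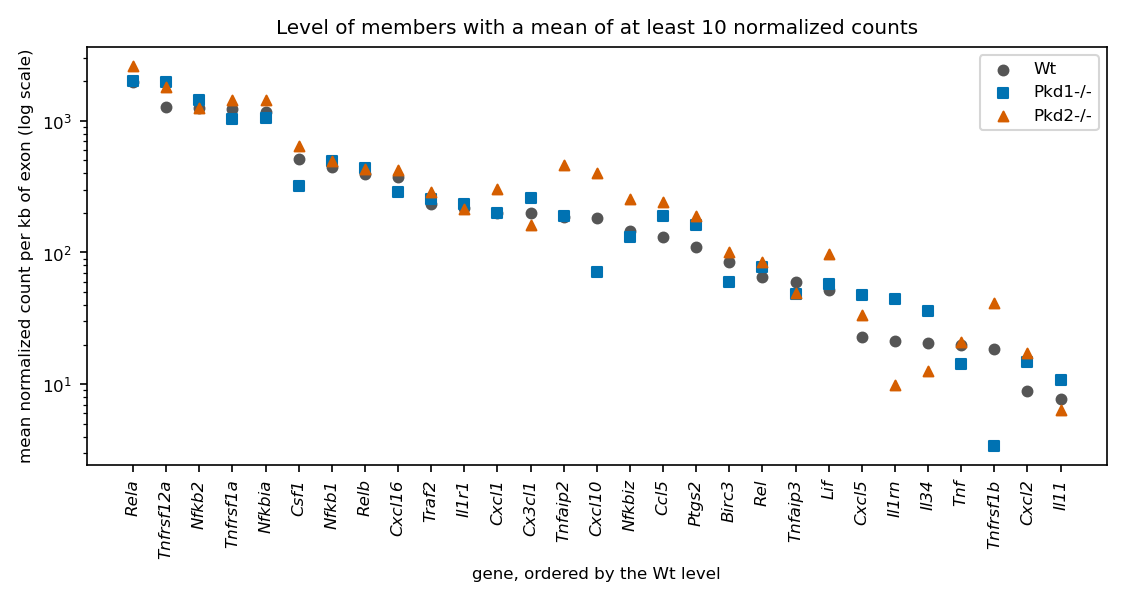
Mean level of the 29 members that averaged 10 normalized counts or more, as normalized counts per kb of exon on a log axis, ordered by the Wt level. Circles are Wt, squares Pkd1-/- and triangles Pkd2-/- means of 4 libraries. The order from Rela at 1977 in Wt down to Il11 at 7.69 spans receptors and NF-kappaB genes at the top and cytokines at the bottom, and Tnfrsf1b, at 3.40 in Pkd1-/- and 41.6 in Pkd2-/- cells, has the widest gap between genotypes.

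Upstream sequences show which of these genes carry NF-kappaB motifs in the reference genome. RefSeq promoters of GRCm38.p6 were found for 35 of the 47 genes, and the 250 bases before each start were searched on both strands. The kappaB consensus was present in 13 of them (37.1%), against 8.23% of the 27025 genes with a promoter. These 13 were Ccl20, Csf1, Cxcl1, Cxcl2, Cxcl10, Il1r1, Il6, Lif, Nfkb2, Nfkbia, Rel, Tnfaip2 and Tnfaip3. The core of the interferon-stimulated response element, here GAAA and a further GAAA with any 2 bases between them, was found for 3 of the 35 (8.57%, against 3.46% of genes), Cxcl10, Cxcl14 and Tnfrsf1b. The AP-1 motif TGANTCA was found for 8 (22.9%, against 7.82%). Of the 11159 tested genes with a promoter, 10.7%, 3.12% and 5.64% held these motifs, in this order. The members were chosen by function and include known NF-kappaB targets. A match is a description of the letters, not of a bound site.

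The promoters of 5 genes are shown because these genes carry the results below: Cxcl10 and Tnfrsf1b moved in opposite directions in the mutants, Csf1 and Nfkbia did so to a smaller extent, and Tnfaip2 rose in one mutant. Each is the strand of the gene, 5′ to 3′, ending at the base before the start. Capitals mark the kappaB consensus and the GAAA pair on either strand. They lie at chr5:92348890-92349139 on the minus strand for Cxcl10, chr4:145246871-145247120 on the minus strand for Tnfrsf1b, chr3:107760470-107760719 on the minus strand for Csf1, chr12:55492648-55492897 on the minus strand for Nfkbia and chr12:111442411-111442660 on the plus strand for Tnfaip2.
Cxcl10: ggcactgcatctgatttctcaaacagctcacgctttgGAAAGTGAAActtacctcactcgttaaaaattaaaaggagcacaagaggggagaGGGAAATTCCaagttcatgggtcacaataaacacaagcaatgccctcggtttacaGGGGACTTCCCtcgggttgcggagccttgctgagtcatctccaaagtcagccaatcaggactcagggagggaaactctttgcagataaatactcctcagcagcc
Tnfrsf1b: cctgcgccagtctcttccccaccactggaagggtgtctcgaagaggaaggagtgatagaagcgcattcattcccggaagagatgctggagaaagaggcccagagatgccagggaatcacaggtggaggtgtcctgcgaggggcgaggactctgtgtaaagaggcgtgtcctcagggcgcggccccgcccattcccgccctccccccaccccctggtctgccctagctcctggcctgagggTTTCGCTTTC
Csf1: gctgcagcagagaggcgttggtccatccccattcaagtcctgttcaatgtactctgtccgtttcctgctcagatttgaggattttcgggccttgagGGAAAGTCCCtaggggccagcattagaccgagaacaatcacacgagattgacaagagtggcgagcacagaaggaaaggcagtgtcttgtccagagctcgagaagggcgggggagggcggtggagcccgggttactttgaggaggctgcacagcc
Nfkbia: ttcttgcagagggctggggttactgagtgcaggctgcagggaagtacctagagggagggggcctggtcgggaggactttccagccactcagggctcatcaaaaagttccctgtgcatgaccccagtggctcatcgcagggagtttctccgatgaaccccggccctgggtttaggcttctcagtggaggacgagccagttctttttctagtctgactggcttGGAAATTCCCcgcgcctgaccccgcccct
Tnfaip2: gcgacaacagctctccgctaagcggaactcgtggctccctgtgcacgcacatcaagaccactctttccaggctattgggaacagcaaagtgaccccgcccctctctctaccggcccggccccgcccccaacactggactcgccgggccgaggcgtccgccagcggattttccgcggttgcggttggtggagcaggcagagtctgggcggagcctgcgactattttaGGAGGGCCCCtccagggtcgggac
In Cxcl10 the GAAA pair lies at -213 to -204, and kappaB matches lie at -159 to -150 and, overlapping each other, at -104 to -94. Tnfrsf1b has no kappaB match in this window and holds the GAAA pair, on the opposite strand, at -10 to -1. Single kappaB matches lie at -154 to -145 in Csf1, -29 to -20 in Nfkbia and -24 to -15 in Tnfaip2. Il1rn, a further gene with opposite changes, has no match to either motif and holds TGANTCA at -141 to -135 of one of its starts.

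Many of these genes differed from Wt in each mutant line. The set was chosen with earlier results of these data known, so its shares beside those of all genes are a description. In Pkd1-/- cells 10 of the 40 tested genes rose and 9 fell at limma's adjusted p under 0.05, or 47.5% together. Of all 18552 tested genes 27.1% passed, 13.6% higher and 13.5% lower. A gene is called here when it also changed by at least 1 on the log2 scale, and 2 genes were called higher and 3 lower, or 12.5% against 6.24% of all genes (2.96% higher and 3.28% lower). In Pkd2-/- cells 20 rose and 6 fell, or 65% against 42.3%. Of these, 3 were called higher and 3 lower, or 15% against 9.62% of all genes (3.24% higher and 6.38% lower). Without Wt replicate 2 or 4 the genes called higher in Pkd1-/- cells numbered 1, and without Wt replicate 4 those called higher in Pkd2-/- cells numbered 5. Rises were thus more frequent than falls among these genes in Pkd2-/- cells, with 20% of all genes higher and 22.3% lower. Between the mutants 15 were higher and 7 lower in Pkd2-/- than in Pkd1-/- cells, or 55% against 46.3% (21.9% higher and 24.3% lower). Of these, 4 were called higher and 5 lower, or 22.5% against 11.8% (4.53% higher and 7.23% lower). The libraries did not overlap those of Wt for 19 of the 40 genes in Pkd1-/- and for 21 in Pkd2-/- cells, against 27.1% and 37.2% of all tested genes. Between the mutants 19 were apart, against 41.8%. For a gene whose groups do not overlap the two-sided exact permutation p is 0.0286, the smallest that 4 against 4 libraries allow. Over the 40 genes the log2 difference from Wt had a median of 0.13 for Pkd1-/- and 0.20 for Pkd2-/- cells, beside 0.01 and -0.01 over all tested genes. Both comparisons use the same Wt libraries, so their values are set side by side here. The Pkd1-/- and Pkd2-/- libraries lay on opposite sides of all Wt libraries for 10 of the 40 genes, or 25% against 6.33% of all tested genes, a count given as a description. Of these 40, 11 had a mean under 10 and could pass the filter through the genotype in which they were high.

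**Figure D2:**
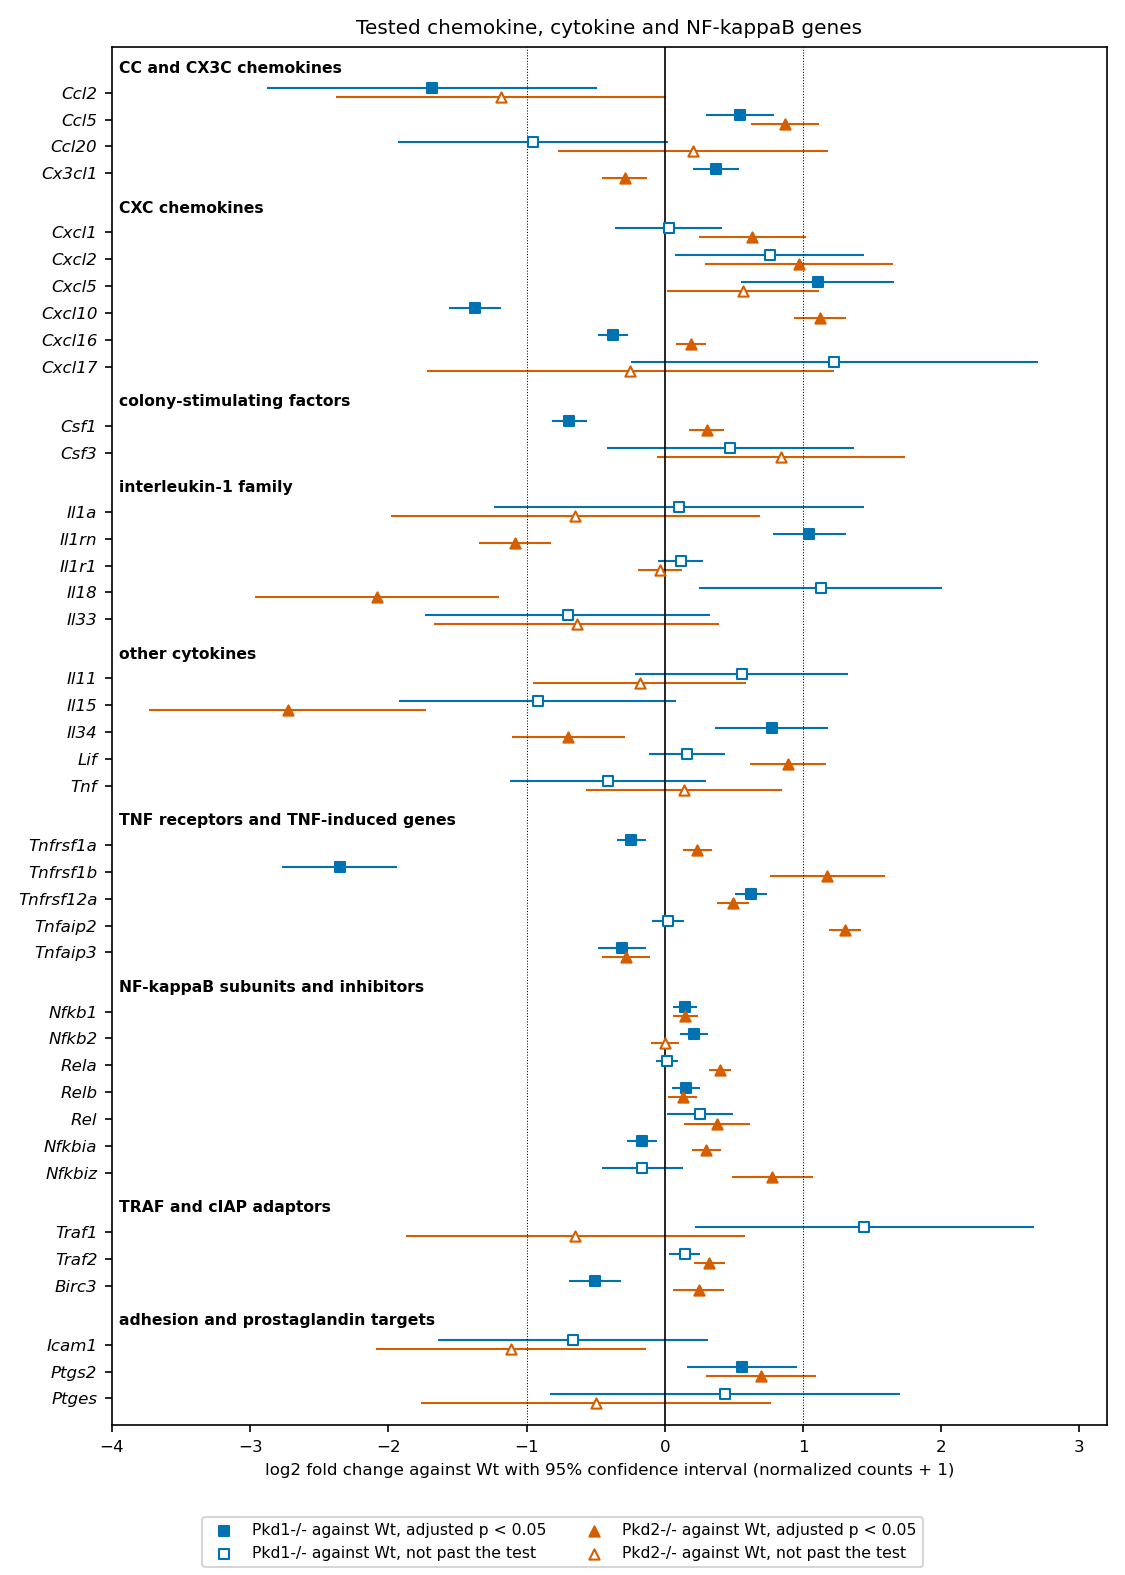
Log2 fold change against Wt of the 40 tested genes, grouped by role, with 95% confidence intervals from limma. Squares are Pkd1-/- and triangles Pkd2-/- cells, filled at an adjusted p under 0.05, and dotted lines mark a log2 change of 1 in either direction. Cxcl10, Tnfrsf1b and Il1rn have their filled symbols beyond the dotted lines on opposite sides, and genes with few counts such as Ccl2 and Cxcl17 have wide intervals.

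Among the tested CXC chemokines of the set, Cxcl10 changed most. It encodes an interferon-inducible attractant of T cells that carry CXCR3. Cxcl10 had 452, 372, 373 and 462 normalized counts in the Wt libraries, 156, 152, 157 and 171 in Pkd1-/- and 805, 977, 955 and 868 in Pkd2-/- libraries. All Pkd1-/- libraries lay below and all Pkd2-/- libraries above the Wt libraries, with no overlap. The log2 fold change was -1.37 ± 0.09 (SE) in Pkd1-/- (adjusted p = 9.99e-10) and 1.12 ± 0.09 in Pkd2-/- cells (adjusted p = 7.61e-09), so that Pkd2-/- cells held 5.67 times the level of Pkd1-/- cells. The 50 nearest genes that averaged 10 counts or more around Cxcl10 on chromosome 5 had a median log2 change of -0.40 in Pkd1-/- and -0.07 in Pkd2-/- cells, and the part of this stretch in the Cxcl10 values was not tested. Cxcl11, a neighboring CXCR3 ligand that was looked up after the Cxcl10 values were seen, had means of 34.8, 2.00 and 21.3 in Wt, Pkd1-/- and Pkd2-/- cells, with log2 changes of -3.62 (adjusted p = 5.06e-06) and -0.54 (adjusted p = 0.371).

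Cxcl1, Cxcl2 and Cxcl5, attractants of neutrophils through CXCR2, lie in 1 cluster on chromosome 5, and their 50 neighbors had a median log2 change of -0.36 in Pkd1-/- cells. Cxcl5 had 30, 27, 61 and 53 normalized counts in Wt, 97, 105, 90 and 65 in Pkd1-/- and 42, 66, 54 and 87 in Pkd2-/- libraries. Pkd1-/- cells stood above Wt without overlap, by 1.11 ± 0.26 (SE) on the log2 scale (adjusted p = 0.00347), and Pkd2-/- cells overlapped Wt at 0.57 ± 0.26 (adjusted p = 0.0953). Without Wt replicate 1 or 2 the Pkd1-/- value was 0.97 or 0.92, under the fold threshold, and the Pkd2-/- value passed the test without Wt replicate 3 (0.76) or Pkd2-/- replicate 1 (0.73). Without Pkd2-/- replicate 4 Cxcl5 was also lower in Pkd2-/- than in Pkd1-/- cells (-0.72, adjusted p = 0.0361). Cxcl1 rose in Pkd2-/- cells, from 278, 348, 318 and 557 in Wt to 448, 537, 541 and 768, by 0.63 ± 0.18 (adjusted p = 0.00872), although the highest Wt library overlapped them. The exact permutation p of this rise was 0.114, and it did not pass in the limma fit without a variance trend (adjusted p = 0.0518). In Pkd1-/- cells Cxcl1 differed from Wt by 0.03, with a 95% interval of -0.36 to 0.41. Cxcl2 had means of 18.5, 30.3 and 35.5, and its Pkd2-/- value of 0.97 (adjusted p = 0.0212) did not pass without Wt replicate 1 (0.64) or Pkd2-/- replicate 4 (0.84). It crossed the fold threshold without Wt replicate 2 (1.18), Wt replicate 4 (1.07) or Pkd2-/- replicate 1 (1.18), and the Pkd1-/- value of 0.76 passed the test without Wt replicate 2 (0.97).

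Cxcl16 and Cx3cl1 are the transmembrane chemokines, which tether cells until they are shed. Cxcl16 had 1064, 1144, 1141 and 1153 in Wt, 849, 890, 858 and 873 in Pkd1-/- and 1254, 1372, 1290 and 1225 in Pkd2-/- libraries. The mutants lay on opposite sides of Wt, at -0.37 ± 0.05 (adjusted p = 2.15e-05) and 0.19 ± 0.05 (adjusted p = 0.00636). Cx3cl1 (fractalkine) moved the other way round, with 720, 730, 858 and 825 in Wt, 915, 1044, 1145 and 951 in Pkd1-/- and 650, 616, 604 and 688 in Pkd2-/- libraries. Its log2 changes were 0.37 ± 0.08 (adjusted p = 0.00128) and -0.29 ± 0.08 (adjusted p = 0.00533). The CXCR6 receptor of Cxcl16 did not exceed 1 in any library and the Cx3cl1 receptor Cx3cr1 was at 0. Cxcl17 had means of 1.00, 4.00 and 0.75. It did not pass the test with all libraries. Between the mutants it passed without replicate 4 of Pkd1-/- (-2.14), of Pkd2-/- (-1.98) or of every genotype (-2.64). Against Wt it passed in Pkd1-/- cells without Pkd1-/- replicate 4 (1.89).

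Of the CC chemokines, only Ccl5 (RANTES), an attractant of T cells and monocytes, averaged 10 or more. It had 141, 108, 120 and 133 normalized counts in Wt, 192, 192, 164 and 185 in Pkd1-/- and 241, 245, 251 and 187 in Pkd2-/- libraries. Both mutants stood above Wt without overlap, by 0.55 ± 0.12 (adjusted p = 0.00153) and 0.87 ± 0.12 (adjusted p = 6.61e-06). The difference of 0.33 between the mutants (adjusted p = 0.0295) did not pass without Pkd1-/- replicate 3 (0.27) or Pkd2-/- replicate 1, 2 or 3 (0.30, 0.29 and 0.28). Ccl2 (MCP-1), the chief monocyte attractant of the diseased kidney, was close to the floor, with 1, 7, 3 and 4 in Wt, 0, 0, 0 and 2 in Pkd1-/- and 2, 0, 1 and 1 in Pkd2-/- libraries. The libraries of both mutants overlapped those of Wt, and no fold is given at this level. The test called it in Pkd1-/- cells (adjusted p = 0.0336), but not without Wt replicates 2, 3 or 4 or Pkd1-/- replicates 1, 2 or 3, and in Pkd2-/- cells only without Wt replicate 1 (adjusted p = 0.0427). Ccl20 had means of 5.75, 2.75 and 7.75, and its difference of 1.16 between the mutants (adjusted p = 0.0492) was lost in 10 of 12 fits that left out 1 library, all but those without Pkd1-/- replicate 4 or Pkd2-/- replicate 3, at 0.89 to 1.23.

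Csf1 and Il34 are the ligands of the macrophage receptor Csf1r, and they changed in opposite directions to each other in each mutant. Csf1 had 2512, 2733, 2929 and 2749 normalized counts in Wt, 1621, 1807, 1578 and 1761 in Pkd1-/- and 3467, 3378, 3067 and 3582 in Pkd2-/- libraries. It fell in Pkd1-/- cells, with a log2 change of -0.69 ± 0.06 (adjusted p = 5.87e-08), and rose in Pkd2-/- cells by 0.30 ± 0.06 (adjusted p = 0.000442), without overlap. Pkd2-/- cells thus held 1.99 times the Csf1 level of Pkd1-/- cells. This difference of 0.9952 on the log2 scale lies at the fold threshold, and it was called without Pkd1-/- replicate 2 (1.03), Pkd1-/- replicate 4 (1.02) or Pkd2-/- replicate 3 (1.04).

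Il34 stood at a far lower level than Csf1. It had 48, 41, 41 and 32 in Wt, 58, 60, 84 and 79 in Pkd1-/- and 23, 21, 26 and 28 in Pkd2-/- libraries. The changes were 0.78 ± 0.19 (adjusted p = 0.00536) and -0.70 ± 0.19 (adjusted p = 0.00699), again without overlap. Under quantile normalization the Pkd2-/- value of Il34 did not pass (-0.41, adjusted p = 0.103). Il34 is overlapped by the antisense genes Gm15895 and Gm15894, with means of 11.3 and 7.58, and the strand setting of the counting is not given in the sources used here. The receptor Csf1r, a leukocyte marker, was present in these cultures at means of 881 in Wt, 479 in Pkd1-/- and 734 in Pkd2-/- cells (log2 changes of -0.89, adjusted p = 1.44e-06, and -0.26, adjusted p = 0.0422), while Ptprc, which all leukocytes carry, did not exceed 5. Csf3, the granulocyte factor, had means of 5, 7.25 and 9. It passed the test in Pkd2-/- cells only without Wt replicate 4 (1.18, adjusted p = 0.0329) or under quantile normalization (1.07, adjusted p = 0.0488).

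**Figure D3:**
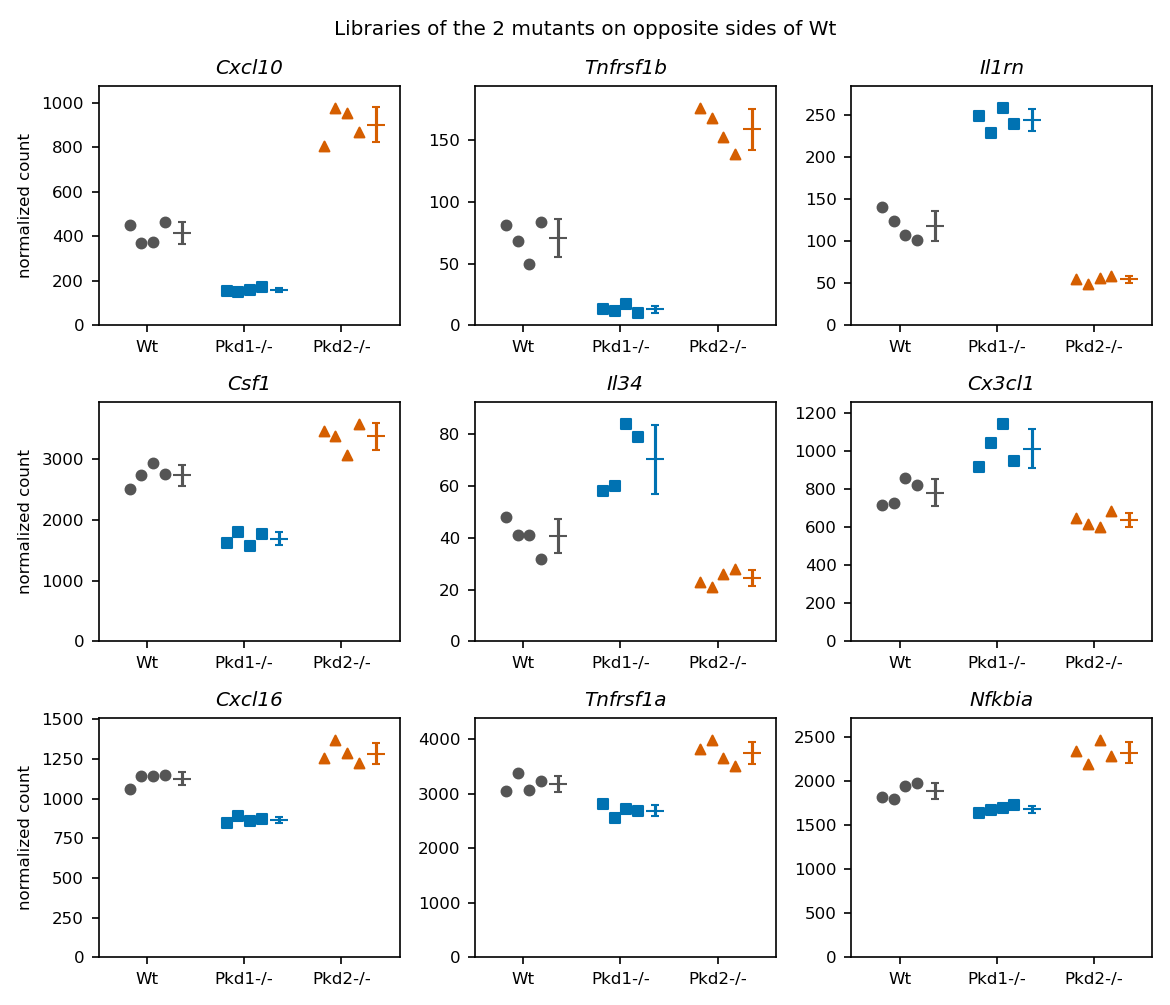
Normalized counts of the 9 genes, among members that averaged 10 counts or more, whose Pkd1-/- libraries all lay on one side and whose Pkd2-/- libraries all lay on the other side of the 4 Wt libraries. Points are libraries, and bars to their right are the mean ± SD (n = 4). Cxcl10, Tnfrsf1b, Csf1, Cxcl16, Tnfrsf1a and Nfkbia are low in Pkd1-/- and high in Pkd2-/- cells, whereas Il1rn, Il34 and Cx3cl1 are high in Pkd1-/- and low in Pkd2-/- cells.

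In the interleukin-1 family the clearest change was in the antagonist. Il1rn encodes the interleukin-1 receptor antagonist, which occupies the receptor without signaling. It had 141, 124, 107 and 102 normalized counts in Wt, 249, 229, 259 and 240 in Pkd1-/- and 55, 49, 57 and 59 in Pkd2-/- libraries. The groups did not overlap. The log2 change was 1.05 ± 0.12 in Pkd1-/- (adjusted p = 2.84e-06) and -1.09 ± 0.12 in Pkd2-/- cells (adjusted p = 8.71e-07), or 4.44 times more in Pkd1-/- than in Pkd2-/- cells. These values lie close to the fold threshold, and without Wt replicate 4 (0.98) or Wt replicate 1 (-0.9984) they fell under it. The 50 neighbors of Il1rn on chromosome 2 had a median of 0.32 in Pkd2-/- cells, opposite to the change of Il1rn.

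The receptor Il1r1 had means of 1387, 1498 and 1350 and did not pass the test, with 95% intervals of -0.05 to 0.28 in Pkd1-/- and -0.20 to 0.13 in Pkd2-/- cells. Its agonists were near or at the floor, Il1a with means of 1.75, 2.75 and 1.00 and Il1b at 0. Il18, which caspase-1 matures, had 4, 5, 7 and 7 in Wt, 18, 15, 11 and 11 in Pkd1-/- and 0, 2, 1 and 0 in Pkd2-/- libraries. It was at least 1.92-fold lower in Pkd2-/- than in Wt cells (adjusted p = 0.000486). In Pkd1-/- cells the libraries stood above Wt, at 1.13 ± 0.42 (adjusted p = 0.0544), which passed the test without Pkd2-/- replicate 1, 2 or 4 (adjusted p = 0.0471, 0.0388 and 0.0454). The receptor subunit Il18r1, chosen after its values were seen, had 112, 99, 63 and 104 in Wt, 88, 98, 92 and 114 in Pkd1-/- and 13, 10, 12 and 11 in Pkd2-/- libraries, a log2 change of -2.91 ± 0.19 in Pkd2-/- cells (adjusted p = 5.15e-10). Il33 had means of 3.75, 2.00 and 2.25 and did not pass the test.

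Of the other cytokines, Lif, a gp130 cytokine that acts through Stat3, rose in Pkd2-/- cells. It had 234, 214, 198 and 255 in Wt, 210, 268, 238 and 294 in Pkd1-/- and 358, 422, 369 and 544 in Pkd2-/- libraries, or 0.89 ± 0.13 above Wt in Pkd2-/- (adjusted p = 1.64e-05) and 0.16 ± 0.13 in Pkd1-/- cells (adjusted p = 0.42). Its relative Il11 had means of 16.0, 22.5 and 13.3 and did not pass the test. Il15, which sustains T cells and natural killer cells, had 7, 11, 4 and 3 in Wt and 4, 2, 4 and 1 in Pkd1-/- libraries and was at 0 in all Pkd2-/- libraries. This is at least 2.08-fold lower in Pkd2-/- than in Wt cells (adjusted p = 0.00012). The mean of Il15 passed the filter through the Wt libraries, so this adjusted p is not independent of the filter. Under the alternative filter with a higher minimum mean Il15 was not tested. Tnf had 95% intervals of -1.12 to 0.30 and -0.57 to 0.85 against Wt.

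Of the TNF receptors, Tnfrsf1b (TNFR2), which signals survival through TRAF2 and cIAP proteins, had 81, 68, 50 and 84 normalized counts in Wt, 13, 12, 17 and 10 in Pkd1-/- and 176, 168, 152 and 139 in Pkd2-/- libraries. It fell in Pkd1-/- cells, with a log2 change of -2.35 ± 0.20 (adjusted p = 2.98e-08), and rose in Pkd2-/- cells by 1.18 ± 0.20 (adjusted p = 7.58e-05). Pkd2-/- cells held 12.2 times the level of Pkd1-/- cells, the largest difference among the 29 members that averaged 10 counts or more. The medians of its 50 neighbors were -0.02 and 0.03.

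Tnfrsf1a (TNFR1), the widely expressed death-domain receptor, moved in the same directions by less, with 3057, 3374, 3065 and 3227 in Wt, 2805, 2554, 2711 and 2690 in Pkd1-/- and 3825, 3988, 3660 and 3511 in Pkd2-/- libraries. Its changes were -0.24 ± 0.05 (adjusted p = 0.00129) and 0.24 ± 0.05 (adjusted p = 0.0009). Tnfrsf12a (Fn14), the receptor of TWEAK, rose in both mutants, from 2285, 2632, 2400 and 2547 in Wt to 3861, 3737, 3725 and 3827 in Pkd1-/- and 3730, 3414, 3607 and 3168 in Pkd2-/- libraries. The rises were 0.62 ± 0.06 (adjusted p = 6.5e-08) and 0.50 ± 0.06 (adjusted p = 6.07e-07), without overlap with Wt. The difference of -0.12 between the mutants passed the test without Pkd2-/- replicate 1 (-0.16, adjusted p = 0.0321). Its ligand gene Tnfsf12, chosen after its values were seen, had 32, 48, 50 and 34 in Wt, 4, 1, 9 and 3 in Pkd1-/- and 32, 32, 34 and 36 in Pkd2-/- libraries, a log2 change of -3.20 ± 0.37 in Pkd1-/- cells (adjusted p = 1.73e-06).

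Tnfaip2, a TNF-induced gene of membrane protrusions, rose in Pkd2-/- cells. It had 946, 1000, 889 and 902 normalized counts in Wt, 927, 1000, 964 and 908 in Pkd1-/- and 2144, 2315, 2391 and 2381 in Pkd2-/- libraries. The rise was 1.30 ± 0.06 in Pkd2-/- cells (adjusted p = 1.09e-12), and the Pkd1-/- value was 0.02, with a 95% interval of -0.09 to 0.14. Tnfaip3 (A20), the deubiquitinase that switches off TNF signaling, fell in both mutants, by less. It had 422, 404, 445 and 458 in Wt, 309, 368, 339 and 384 in Pkd1-/- and 344, 367, 331 and 381 in Pkd2-/- libraries, with log2 changes of -0.31 ± 0.08 (adjusted p = 0.00833) and -0.28 ± 0.08 (adjusted p = 0.00946). Under quantile normalization the Pkd2-/- value of Tnfaip3 did not pass (-0.20, adjusted p = 0.052).

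All 7 subunit and inhibitor genes differed from Wt by less than 0.8 on the log2 scale in either mutant. In Pkd2-/- cells 6 of the 7 rose, against 20% of all genes, and Nfkb2 stood at 0.00 (adjusted p = 0.982). Under upper quartile scaling and under quantile normalization the Pkd2-/- rises of Nfkb1 (0.10 and 0.05) and Relb (0.08 and 0.10) did not pass. In Pkd1-/- cells 3 rose and 1 fell, against 13.6% of all genes higher and 13.5% lower.

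Rela (p65), the subunit with the main activation domain, had 5876, 6262, 6028 and 6124 in Wt, 6116, 6204, 6078 and 6165 in Pkd1-/- and 8008, 8082, 7977 and 7979 in Pkd2-/- libraries. It rose by 0.40 ± 0.04 in Pkd2-/- cells (adjusted p = 6.96e-08) and differed from Wt by 0.02 in Pkd1-/- cells, with a 95% interval of -0.06 to 0.10. The 50 genes around Rela on chromosome 19 had medians of 0.22 in Pkd1-/- and 0.23 in Pkd2-/- cells. Nfkb1 (p105, the precursor of p50) rose by 0.15 ± 0.04 in either mutant, from a mean of 5354 to 5930 and 5933 (adjusted p = 0.0133 and 0.00778). Nfkb2 (p100, the precursor of p52 in the alternative pathway) rose in Pkd1-/- cells, from 5709 to 6622 or by 0.21 ± 0.05 (adjusted p = 0.00223), and stood at 5718 in Pkd2-/- cells. Nfkb2 overlaps Psd on the opposite strand, which had a mean of 439.

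Relb, the partner of p52, had means of 1527, 1699 and 1670, and its changes of 0.15 (adjusted p = 0.0262) and 0.13 (adjusted p = 0.0415) were the least secure. The Pkd1-/- value was lost without Wt replicate 1 or 2 or Pkd1-/- replicate 1 or 4, at 0.12 to 0.15. The Pkd2-/- value was lost without Wt replicates 1, 2 or 3, Pkd1-/- replicates 3 or 4 or Pkd2-/- replicates 1, 2 or 3, at 0.10 to 0.14. Rel (c-Rel), the subunit best known from lymphocytes, had means of 488, 577 and 633, rising by 0.38 ± 0.11 in Pkd2-/- cells (adjusted p = 0.0111), and in Pkd1-/- cells its 0.25 (adjusted p = 0.111) passed the test without Wt replicate 4 (0.33, adjusted p = 0.0416).

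Of the inhibitors, Nfkbia, an early target of the factor that it retains in the cytoplasm, had 1818, 1802, 1942 and 1980 in Wt, 1638, 1668, 1693 and 1726 in Pkd1-/- and 2344, 2193, 2469 and 2284 in Pkd2-/- libraries. The groups did not overlap, with changes of -0.16 ± 0.05 (adjusted p = 0.0191) and 0.30 ± 0.05 (adjusted p = 7.28e-05), although the first was lost without Wt replicate 3 (-0.15) or Wt replicate 4 (-0.14). Nfkbiz (IkappaB-zeta), a nuclear co-regulator of secondary response genes, had 622, 669, 772 and 872 in Wt, 525, 700, 649 and 748 in Pkd1-/- and 1026, 1134, 1212 and 1729 in Pkd2-/- libraries. It rose by 0.78 ± 0.14 in Pkd2-/- cells (adjusted p = 0.00015). Its difference of 0.94 between the mutants crossed the fold threshold without Pkd1-/- replicate 4 (1.01) or Pkd2-/- replicate 1 (1.04). The 50 neighbors of Nfkbiz on chromosome 16 had a median of -0.32 in Pkd1-/- cells, where Nfkbiz itself stood at -0.16 (adjusted p = 0.445).

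**Figure D4:**
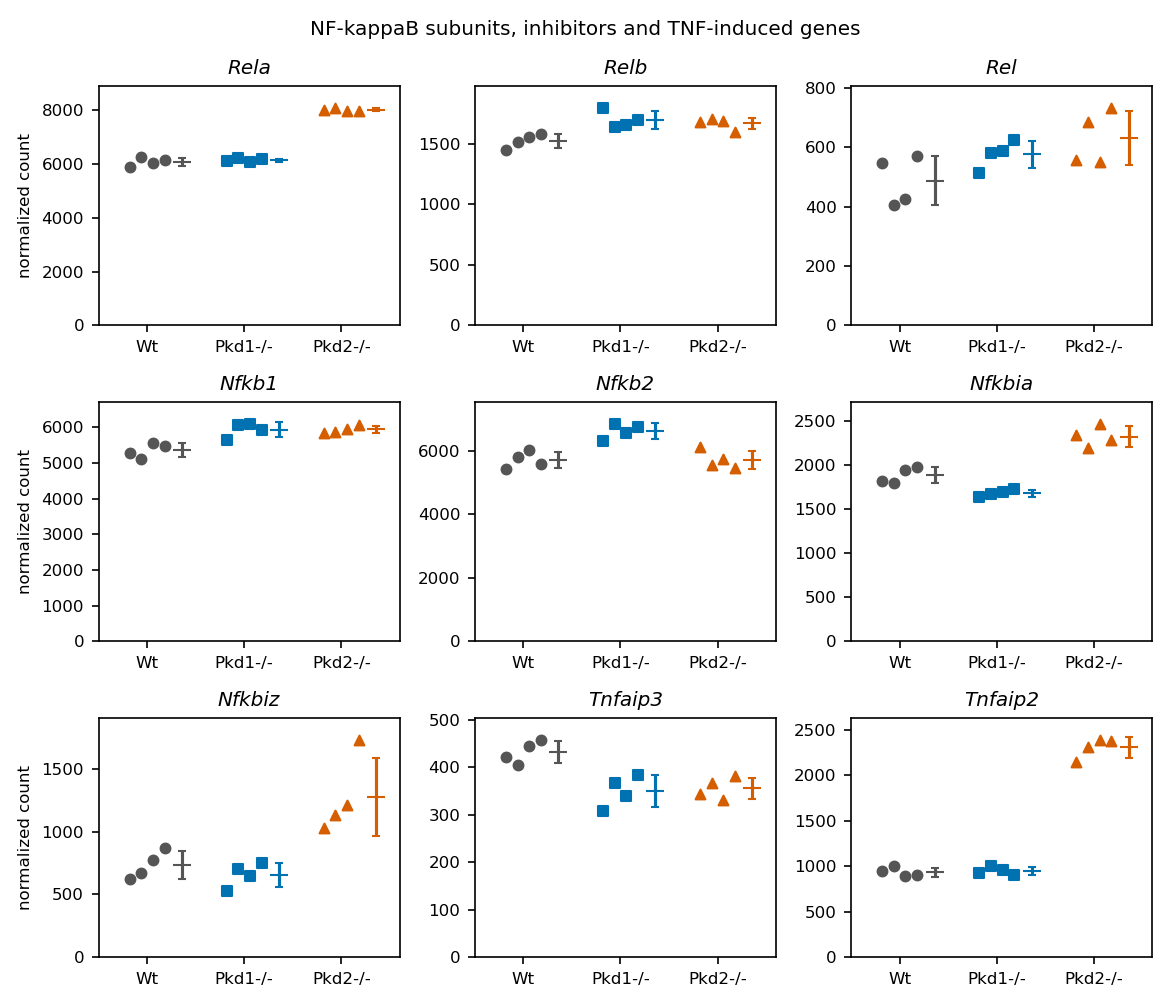
Normalized counts of NF-kappaB subunits (Rela, Relb, Rel, Nfkb1, Nfkb2), inhibitors and regulators (Nfkbia, Nfkbiz, Tnfaip3) and the TNF-induced gene Tnfaip2, each on its own axis from 0. Points are libraries, and bars to their right are the mean ± SD (n = 4). Rela, Nfkbiz and Tnfaip2 lie above Wt without overlap in Pkd2-/- but not in Pkd1-/- cells, at Pkd2-/- means of 8012, 1275 and 2308.

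Among the adaptors, Birc3 (cIAP2), a ubiquitin ligase of TNF receptor complexes and a known NF-kappaB target, fell in Pkd1-/- cells. It had 461, 424, 377 and 429 in Wt, 279, 308, 293 and 309 in Pkd1-/- and 517, 428, 490 and 575 in Pkd2-/- libraries, a log2 change of -0.50 ± 0.09 in Pkd1-/- cells (adjusted p = 0.000259). The Pkd2-/- value of 0.24 (adjusted p = 0.0345) overlapped Wt and was lost without Wt replicate 2, 3 or 4 or Pkd2-/- replicate 1 or 4, at 0.18 to 0.25. Traf2, the adaptor of both TNF receptors, had means of 1181, 1308 and 1479 and rose by 0.32 ± 0.05 in Pkd2-/- cells (adjusted p = 6.22e-05). Its 50 neighbors on chromosome 2 had the same median of 0.32, and the part of this stretch was not tested. In Pkd1-/- cells Traf2 stood at 0.14 (0.145, adjusted p = 0.0505), and it passed without Pkd1-/- replicate 3 (0.18, adjusted p = 0.0239) or, at 0.145, without Pkd2-/- replicate 4. Traf1, an inducible adaptor, had 3, 0, 2 and 0 in Wt, 3, 4, 2 and 10 in Pkd1-/- and 1, 0, 0 and 0 in Pkd2-/- libraries, and was higher in Pkd1-/- than in Pkd2-/- cells (adjusted p = 0.00606). The mean of Traf1 passed the filter through the Pkd1-/- libraries, and the difference had an adjusted p of 0.03 without Pkd1-/- replicate 4 and of 0.0531 without replicate 4 of every genotype. The difference of Traf2 between the mutants also missed the test without those 3 libraries (0.16, adjusted p = 0.0531), against 0.18 (adjusted p = 0.00953) with them. The Pkd1-/- value of Traf1 against Wt passed the test only without Wt replicate 1 (adjusted p = 0.0358).

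Of the target genes, Icam1, the leukocyte adhesion molecule, was low, with 16, 17, 9 and 4 in Wt, 8, 8, 9 and 2 in Pkd1-/- and 3, 4, 4 and 6 in Pkd2-/- libraries. Its Pkd2-/- value of -1.11 (adjusted p = 0.0628) passed the test without Wt replicate 4 (adjusted p = 0.0121) or Pkd1-/- replicate 4 (adjusted p = 0.0339). Ptgs2 (cyclooxygenase-2), the inducible enzyme of prostaglandin synthesis, had 467, 491, 457 and 585 in Wt, 683, 690, 740 and 832 in Pkd1-/- and 570, 743, 687 and 1468 in Pkd2-/- libraries. It was 0.56 ± 0.19 higher than Wt in Pkd1-/- (adjusted p = 0.035) and 0.70 ± 0.19 higher in Pkd2-/- cells (adjusted p = 0.0057), where 1 library overlapped Wt. The Pkd1-/- value was lost without any 1 of Wt replicates 1, 2 or 3 or Pkd1-/- replicates 2, 3 or 4, at 0.50 to 0.59. Without Pkd2-/- replicate 4 the Pkd2-/- value was 0.41 (adjusted p = 0.00261), and the Pkd1-/- value was the same at an adjusted p of 0.000119. The prostaglandin E synthase Ptges had means of 1.25, 2.25 and 0.50 and did not pass the test.

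Replicate 4 held the highest value of Ptgs2, Nfkbiz, Cxcl1 and Lif in every genotype, a pattern that was picked out after the values were seen. The mitochondrial share of normalized counts was also highest in replicate 4 of each genotype, at 3.61%, 2.46% and 2.84% beside 1.36% to 2.71% in the other libraries. So was Fosb, an immediate early gene looked up after these values were seen, at 631, 458 and 3198 beside at most 345, 286 and 1656. Without the 3 libraries numbered 4 the Pkd2-/- changes were 0.49 for Ptgs2 (adjusted p = 0.000255), 0.71 for Nfkbiz (adjusted p = 2.08e-05), 0.69 for Cxcl1 (adjusted p = 0.000134) and 0.83 for Lif (adjusted p = 1.28e-05). The Pkd1-/- change of Ptgs2 was then 0.58 (adjusted p = 9.98e-05), with the groups of 3 libraries apart. Fosb rose by 2.32 in Pkd2-/- cells (adjusted p = 0.000138), and its part in the rises was not tested.

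Other genes of the same pathways were counted from lists of 179 genes, of which 109 were tested. The lists were also chosen with earlier results of these data known, and their shares are a description. In Pkd1-/- cells 11 passed the test higher and 27 lower, and in Pkd2-/- cells 24 higher and 29 lower. These are 10.1% and 24.8% in Pkd1-/- cells, against 13.6% and 13.5% of all tested genes, and 22% and 26.6% in Pkd2-/- cells, near the 20% and 22.3% of all tested genes. Of 40 tested genes of NF-kappaB activation and restraint, such as the IkappaB kinases, 4 rose and 7 fell in Pkd1-/- cells (10% and 17.5%) and 13 rose and 9 fell in Pkd2-/- cells (32.5% and 22.5%). Apart from the 32.5% these shares lie near those of all genes. Nfkbid (IkappaB-NS), a nuclear inhibitor, rose in both mutants, with 4, 6, 8 and 3 in Wt, 27, 23, 20 and 31 in Pkd1-/- and 31, 21, 25 and 20 in Pkd2-/- libraries, or by 2.12 ± 0.30 (adjusted p = 2.02e-05) and 2.06 ± 0.30 (adjusted p = 1.4e-05). Bcl3, a nuclear partner of p50 and p52, had means of 115, 47.0 and 93.8 and fell in Pkd1-/- cells, with a log2 change of -1.28 (adjusted p = 2.53e-06).

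Of 24 tested TNF superfamily ligands and receptors, 2 rose and 9 fell in Pkd1-/- cells, or 8.33% and 37.5% against 13.6% and 13.5% of all genes, and 1 rose and 9 fell in Pkd2-/- cells, or 4.17% and 37.5% against 20% and 22.3%. The death receptor Tnfrsf21 had means of 148, 40.5 and 12, with log2 changes of -1.89 (adjusted p = 5.62e-06) and -3.54 (adjusted p = 5.67e-10). Cd40, with means of 11, 1.75 and 3.75, and Tnfrsf11a (RANK), with means of 56.5, 22.3 and 16.3, were called lower in both mutants. Ltb, which acts through the alternative NF-kappaB pathway, fell in both mutants, with means of 256, 71.0 and 152. Among 9 tested interleukin-1 family genes, 1 rose and 1 fell in Pkd1-/- cells (11.1% each) and 1 rose and 6 fell in Pkd2-/- cells (11.1% and 66.7%, against 20% and 22.3%), with the inflammatory caspase Casp4 at means of 97.5, 14.5 and 21.8 (adjusted p = 5.17e-09 and 5.69e-08). Of 5 tested chemokines outside the set 1 rose and 1 fell in Pkd1-/- cells (20% each), and of 4 tested chemokine receptors 1 rose (25%), against 13.6% and 13.5% of all genes. In Pkd2-/- cells limma passed 0 of these 9 chemokine and receptor genes, and 0 also at an unadjusted p under 0.05, while 42.3% of all tested genes passed. With so few genes these shares are only a description.

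Of 15 further tested NF-kappaB targets, limma passed 0 higher and 6 lower in Pkd1-/- cells, where 9 had an unadjusted p under 0.05, and 4 rose and 3 fell in Pkd2-/- cells. The 6 are 40% against 13.5% of all genes, and the 4 and 3 are 26.7% and 20% against 20% and 22.3%. Lcn2, an iron-binding protein of tubular injury, had 2862, 2954, 2893 and 2616 in Wt, 710, 558, 643 and 558 in Pkd1-/- and 5249, 5164, 4753 and 4334 in Pkd2-/- libraries. Its log2 changes of -2.20 ± 0.08 (adjusted p = 1.57e-13) and 0.78 ± 0.08 (adjusted p = 1.15e-07) had the same signs as those of Cxcl10. Plau, the urokinase plasminogen activator, fell from a mean of 1275 to 626 in Pkd1-/- cells (-1.02, adjusted p = 8.23e-10), and the adhesion molecule Vcam1 from 294 to 116 in Pkd2-/- cells (-1.35, adjusted p = 2.09e-07). Ier3, an early response gene, rose from 2908 to 5857 in Pkd2-/- cells (1.02, adjusted p = 5.12e-05).

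Of 12 tested genes around prostaglandins, 2 rose and 3 fell in Pkd1-/- cells, or 16.7% and 25% against 13.6% and 13.5% of all genes, and 5 rose and 2 fell in Pkd2-/- cells, or 41.7% and 16.7% against 20% and 22.3%. Slco2a1, which carries prostaglandins into cells, had 274, 329, 298 and 314 in Wt, 432, 544, 475 and 520 in Pkd1-/- and 2654, 2916, 2546 and 2907 in Pkd2-/- libraries, a log2 change of 3.18 ± 0.08 in Pkd2-/- cells (adjusted p = 4.35e-16). Abcc4, an exporter of prostaglandins and cyclic AMP, fell from a mean of 886 to 661 in Pkd1-/- cells and rose to 2760 in Pkd2-/- cells (1.64, adjusted p = 2.05e-11). Hpgds, a prostaglandin D synthase, had 73, 69, 50 and 44 in Wt, 8, 5, 6 and 7 in Pkd1-/- and 130, 115, 126 and 134 in Pkd2-/- libraries, with changes of -2.99 (adjusted p = 2.27e-09) and 1.11 (adjusted p = 0.000224). Ptgs2, by comparison, moved by less than 1 on the log2 scale in either mutant.

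**Figure D5:**
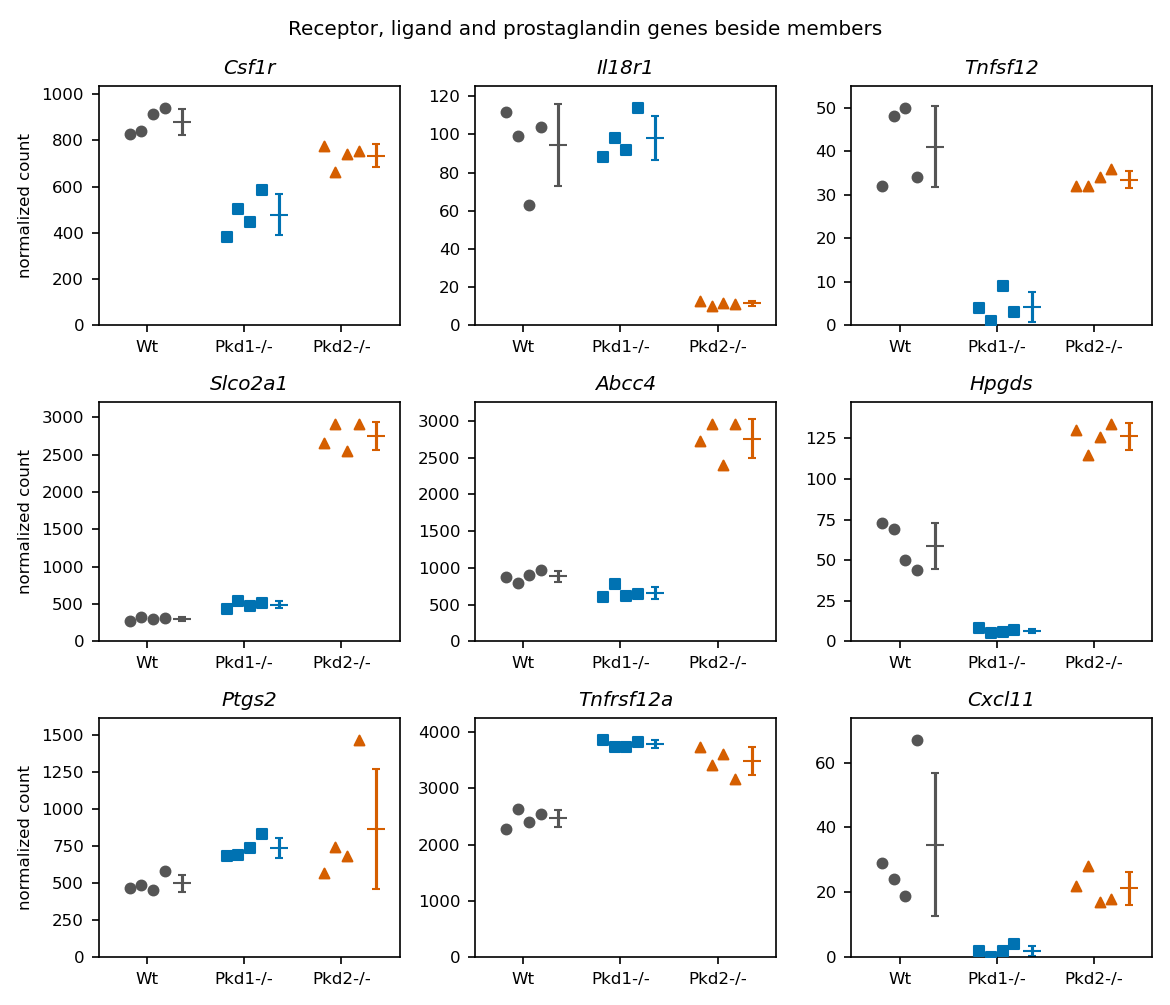
Normalized counts of receptor, ligand and prostaglandin genes beside Ptgs2 and Tnfrsf12a, each on its own axis from 0. Points are libraries, and bars to their right are the mean ± SD (n = 4). Il18r1 stands at 11.5 in Pkd2-/- cells against 94.5 in Wt, Tnfsf12 and Cxcl11 are lowest in Pkd1-/- cells at 4.25 and 2.00, and Slco2a1 and Abcc4 are highest in Pkd2-/- cells at 2756 and 2760.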

How the data were processed

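RNA-seq of 12 libraries was analysed, 4 each of Wt, Pkd1-/- and Pkd2-/- mIMCD3 cells, grouped by the genotype in the labels. The authors trimmed reads with Trim Galore, checked them with FastQC, aligned them with HISAT2 to mm10 and counted them per gene with HTSeq. The deposited score values are those counts normalized by the authors with DESeq2 and rounded to whole numbers, so they are not read counts and no count model was used. Depth before normalization is therefore unknown. Symbols and exon lengths came from GENCODE M21 (47223 of 47642 identifiers matched). Values were analysed as log2(value + 1), so fold changes of genes with few counts are understated. Genes with a mean of at least 1 (18552) were fitted over all 12 libraries with limma 3.58.1 in R 4.3.3 (linear model, empirical Bayes with a variance trend), and p-values were adjusted by Benjamini-Hochberg within each comparison over all genes tested. A gene passed at an adjusted p under 0.05 and was called if it also changed by 1 or more on the log2 scale. The fit was tested on simulated data with 200 changed genes. These were all well above the floor and changed by more than the fold threshold. The simulation therefore does not cover members with few counts or smaller changes.

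Every member was named, and those called against Wt with a mean of at least 10 in 1 genotype or more are given in every library. From each other pathway list up to 4 genes were named by absolute log2 fold change, if both mutants were called with 1 sign or either was called with a mean of at least 100 in 1 genotype. Members and lists were chosen with earlier results of these data known. Alternatives were other pseudocounts (0.5 and 5), filters, scalings, fits and libraries left out. Deviations from the genotype means did not show the replicate numbers to pair the libraries, although the highest correlations were between libraries numbered 4.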

Additional observations from a re-analysis of the deposited data

Results flagged for a closer look

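For 9 genes that averaged 10 normalized counts or more, and for Il18 below that level, all 4 Pkd1-/- libraries lay on one side and all 4 Pkd2-/- libraries on the other side of the Wt libraries. These are 10 of 40 tested members, or 25%, against 6.33% of all 18552 tested genes. Since this choice already separates the mutants, their differences are given as a description with no test. Pkd2-/- cells stood above Pkd1-/- cells by a log2 difference of 3.53 for Tnfrsf1b, 2.49 for Cxcl10, 1.00 for Csf1, 0.57 for Cxcl16, 0.48 for Tnfrsf1a and 0.46 for Nfkbia. They stood below them at -2.13 for Il1rn, -1.47 for Il34 and -0.66 for Cx3cl1. Each mutant is 1 clone, so differences between clones cannot be told apart from differences between the genotypes.

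Single libraries stood far from the other 3 of their genotype for 2 genes, of 87 groups of 4 libraries examined over 29 genes. Ccl5 was lowest in Pkd2-/- replicate 4, at 187, with a gap of 0.844 of the group's range. Cxcl16 was lowest in Wt replicate 1, at 1064, with a gap of 0.865 of the range. Both gaps exceed Dixon's critical value for 4 libraries, and chance alone would give about 1 such group in 20.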

How the results depend on the processing

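Of 67 values of members past the test, 50 kept their sign and side in every one of the 22 alternatives that tested them, 17 were lost in at least 1, and 0 reversed. The values lost when 1 library was left out are given with their genes. Under quantile normalization 6 members were called higher in Pkd2-/- against Wt instead of 3. With a mean of at least 10, which tests fewer members, 1 was called lower in Pkd2-/- against Wt instead of 3, and between the mutants 2 were called lower instead of 5 and 4 passed lower instead of 7. With a pseudocount of 5, which shrinks fold changes of genes with few counts, 3 were called lower between the mutants. Leaving out 1 library at a time, the members called higher in Pkd1-/- cells ranged from 1 to 3 and those in Pkd2-/- cells from 3 to 5. Without replicate 4 of every genotype, an alternative chosen after seeing the data, 1 member was called higher in Pkd1-/- cells, and Il34 (0.61, adjusted p = 0.063), Nfkbia (-0.15, adjusted p = 0.0684), and in Pkd2-/- cells Cxcl2 (0.93, adjusted p = 0.0613) and Birc3 (0.19, adjusted p = 0.16) no longer passed, nor did Traf1 (-1.64, adjusted p = 0.0531), Traf2 (0.16, adjusted p = 0.0531) and Ccl20 (1.25, adjusted p = 0.0772) between the mutants. The same alternative gained Icam1 in Pkd2-/- cells (-1.65, adjusted p = 0.00291). Between the mutants it gained Cxcl17 (-2.64, adjusted p = 0.00206) and Cxcl5 (-0.86, adjusted p = 0.0137). Apart from the changes that follow from fewer genes tested or a larger pseudocount, the cause was not tested.

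Libraries with the same replicate number deviated together with correlations of -0.07 to 0.20 over 12 pairs, beside -0.20 to 0.11 for 36 pairs with other numbers. The highest were between libraries numbered 4, at 0.20 for Wt and Pkd2-/- and 0.167 for Pkd1-/- and Pkd2-/- cells. The Wt and Pkd1-/- libraries numbered 4 stood at 0.0878. The numbers were not taken to pair libraries, and what the libraries numbered 4 share was not tested. With the replicate block Relb in Pkd2-/- cells (0.13) was the only member value lost, and Il1r1 between the mutants (-0.15, adjusted p = 0.0485) was gained.

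Genes under the floor of 3 normalized counts, such as Il6, Il1b and Ccl7, cannot be shown to be absent. The deposited values hold no read counts, so counting error per library could not be given.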
